A study of Mus musculus with 25 samples.

Results

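The genes of 9 factors of nonsense-mediated decay were followed: Upf1, Upf2, Upf3a, Upf3b, Smg1, Smg5, Smg6, Smg9 and Eif4a3. They were chosen by name from the deposited intron lists, and all 9 were found among the 17591 genes listed. Their single listed transcripts hold 185 of the 163315 introns with values. All 9 genes passed the filter on low gene counts, and 83 of their 185 introns passed the filter on low intron reads. That filter used the mean over all libraries, so an intron could pass through the group in which it was high, and counts of introns below describe the tested introns alone.

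Nonsense-mediated decay removes mRNAs in which translation ends too early. A ribosome that stops upstream of an exon junction complex, the protein mark that splicing leaves near each exon border, brings in the helicase UPF1, which is then phosphorylated and recruits the enzymes that cut and degrade the transcript. A retained intron often carries a stop codon in frame, so splicing supplies both the substrates of the pathway and the mark that it reads. Several of its factors are known to be controlled by the pathway itself.

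The libraries came from tumors of 4 transplanted mouse models of triple-negative breast cancer, each derived from genetically engineered mice and grown in the mammary gland of female mice. The drug, H3B-8800, is a splicing modulator that targets SF3B1, a protein with which the spliceosome selects branch points. Polyadenylated RNA of whole tumors was sequenced, so host stroma and immune cells were included with the tumor cells. The mice were 4 to 5 weeks old at transplant and received drug or vehicle daily until collection.

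The PyMT-M tumors, in C57BL/6 mice, gave 4 vehicle and 4 H3B-8800 libraries. The AT3 tumors, also in C57BL/6 mice, gave 3 vehicle and 2 H3B-8800 libraries. The 2208L and T11 tumors, in Balb/c mice, each gave 3 vehicle and 3 H3B-8800 libraries. PyMT-M and 2208L are responders by label, and AT3 and T11 nonresponders. Replicates are biological replicate tumors according to the design text, and each model is 1 transplanted line, so the results compare these 4 lines and not kinds of tumor.

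Libraries held 9820825 to 19700955 reads spliced across introns. The intronic share of the T11 libraries ran against their labels: it was 11.5 to 18.1% over all genes in those labelled vehicle and 9.33 to 11.96% in those labelled H3B-8800, while in the other models it was higher with the drug on average. T11 is therefore named by label throughout and kept out of the mean of the other 3 models. Skeletal muscle or B cell transcripts were high in 6 libraries: T11 labelled vehicle replicate 3, T11 labelled H3B-8800 replicate 2, PyMT-M H3B-8800 replicates 1 and 2, AT3 vehicle replicate 2 and 2208L vehicle replicate 1. In 4 libraries the 5′ end of genes with at least 20 introns was thinly covered: the ratio of spliced reads in the 5′ part of their introns to those in the 3′ part was 0.247 to 0.394, against at least 0.419 elsewhere. These were T11 labelled vehicle replicate 1, PyMT-M vehicle replicate 4, AT3 H3B-8800 replicate 1 and 2208L vehicle replicate 1. Drug calls of the 9 genes, and of their introns named by smallest p or largest change, are given with and without either set where they change. For AT3 without the 4 this is by size alone. Single calls of the other pathway genes, of other introns and between vehicle tumors are given with all libraries unless stated. Whether those hold without either set is not shown. AT3 has 2 drug libraries, so a fit without the 4, or without either of the 2, leaves 1 AT3 drug library. Such a fit holds no spread among AT3 drug libraries.

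All 5 mammary epithelial markers were detected in every PyMT-M library, with summed levels of 2675 to 6448 CPM (the usual CPM scale, here spliced reads relative to library size). Levels were 3135 to 4460 CPM in 2208L, 177 to 416 CPM in AT3 and 99.9 to 225 CPM in T11. Krt14 was at 0 in every AT3 vehicle library, and Krt5 in every T11 and every 2208L vehicle library. Macrophage markers were higher with the drug in PyMT-M and 2208L and overlapped in AT3. Their sum was 97.5 to 255.4 CPM in PyMT-M vehicle and 387 to 527 CPM with the drug, and 149 to 577 against 977 to 1118 CPM in 2208L. It was 349 to 497 against 401 to 487 CPM in AT3, and 416 to 569 CPM in T11 labelled vehicle against 666 to 810 CPM in T11 labelled H3B-8800. All 5 macrophage markers were detected in every library of the 8 groups, and their part in the results below was not tested.

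The first question was whether introns of the pathway's own transcripts were left in the RNA under H3B-8800. In PyMT-M they were for part of the 9 genes. Upf1 went from 9.80% ± 4.08 (SD, n = 4) of its reads inside introns to 60.4% ± 6.08 (n = 4), and Smg9 from 23.7% ± 8.73 to 64.8% ± 5.73. Upf3a, Smg5 and Eif4a3 were also higher without overlap. The groups overlapped for Upf2 (22.3% against 27.8%), Smg1 (19.2% against 34.3%) and Smg6 (43.3% against 44.6%), with exact permutation p = 0.429, 0.114 and 0.914. Upf3b went the opposite way to Upf1, from 46.9% ± 7.41 to 26.3% ± 3.92. Reads inside an intron were tested relative to the spliced reads of its gene (edgeR quasi-likelihood test, Benjamini-Hochberg adjustment over 52042 introns, called at an adjusted p under 0.05). In PyMT-M, 62 of the 83 tested introns were called (74.7%, beside 60.3% of all tested introns). Of the 62, 56 were higher with the drug (54.7% of all introns) and 6 lower (5.67% of all). In AT3, 24 were called (28.9%, beside 19.7% of all introns), all of them higher (19.4% of all introns, with 0.321% lower). In 2208L, 21 were called (25.3%, beside 21.5% of all introns), 20 higher (21% of all) and 1 lower (0.536% of all). The median log2 difference of the 83 introns was 1.92 in PyMT-M, 1.31 in AT3 and 1.35 in 2208L, beside 1.57, 1.10 and 1.07 over all tested introns.

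By gene, the calls in PyMT-M were uneven. Higher introns made up 17 of the 18 tested in Upf1, 7 of 7 in Smg9, 7 of 8 in Eif4a3, 10 of 13 in Smg5, 7 of 9 in Smg1 and 3 of 4 in Upf3a. Smg1 has 62 introns, and the 9 tested all lie from intron 36 to the 3′ end. In Upf2, 2 of 10 were higher and 1 lower, in Smg6 2 of 8 were higher and 2 lower, and in Upf3b 1 of 6 was higher and 3 lower. Without the 6 libraries with muscle or B cell transcripts the calls over the 9 genes were 46 in PyMT-M, 19 in AT3 and 8 in 2208L. Without the 4 libraries with few 5′ reads they were 61 in PyMT-M and 18 in 2208L. The AT3 calls depended on H3B-8800 replicate 2, and most were lost without it. That fit leaves 1 AT3 drug library, replicate 1, which had the lowest 5′ ratio of all libraries (0.247).

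**Figure D1:**
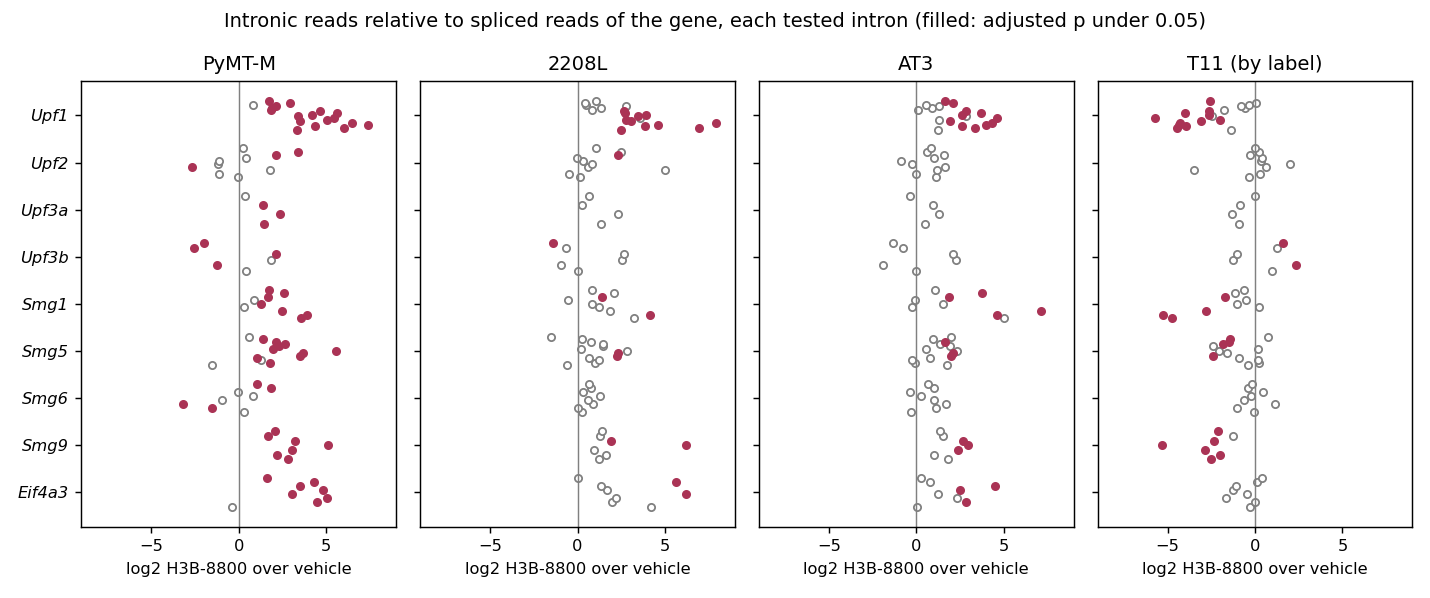
Log2 difference, H3B-8800 over vehicle, of the intronic reads of each tested intron relative to the spliced reads of its gene (x axis), by gene (y axis) and model. Each point is 1 intron, filled where the adjusted p was under 0.05. In PyMT-M, 56 points are filled to the right of 0 and 6 to the left, and in T11 by label 25 are filled to the left and 2 to the right.

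The difference in drug effect between the models was tested directly. Among the 83 introns, none differed between PyMT-M and AT3, PyMT-M and 2208L or 2208L and AT3 in edgeR (0.00576%, 0.117% and 0.00192% of all introns), and at an unadjusted p under 0.05 there were 17, 14 and 4.

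Taking the 3 models as 1 mean effect, 61 of the 83 introns were called (73.5%, beside 58.7% of all introns), 58 higher (56.1% of all) and 3 lower (2.65% of all). The 58 higher introns had a median length of 785 bases, the 3 lower 2488 bases and the 22 not called 3688 bases. Of introns of up to 1000 bases, 31 of 36 were higher (86.1%, where 68.3% of all tested introns of that length were), of those over 1000 and up to 3000 bases 17 of 26 (65.4%, beside 59.7%), and of longer ones 10 of 21 (47.6%, beside 38.1%). The decline with length was thus present over all introns as well. Length also sets how many reads an intron can collect, and the percent given below is not corrected for it. An annotated exon of another transcript overlapped 12 of the 58 higher introns and 1 of the 3 lower ones. The 12 include Eif4a3 intron 2, Smg6 intron 17, Smg5 introns 12, 16 and 20 and Smg9 introns 6 and 10, described below. Reads inside these introns need not be retention alone.

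For 6 of the introns that were higher in PyMT-M, the last 60 bases are given from mouse transcripts annotated in GENCODE M21 (build mm10) that read through the 3′ end. They are shown because the branch point and the pyrimidine tract, which the SF3B complex and its partners engage, lie there. They run 5′ to 3′, with the AG that ends the intron in capitals.
Smg5 intron 12, chr3:88352903-88352962, plus strand: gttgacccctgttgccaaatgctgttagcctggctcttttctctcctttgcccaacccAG
Smg5 intron 16, chr3:88358593-88358652, plus strand: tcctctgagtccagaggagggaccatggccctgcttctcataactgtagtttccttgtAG
Smg5 intron 20, chr3:88360694-88360753, plus strand: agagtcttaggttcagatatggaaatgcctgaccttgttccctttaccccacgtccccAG
Smg6 intron 17, chr11:75159765-75159824, plus strand: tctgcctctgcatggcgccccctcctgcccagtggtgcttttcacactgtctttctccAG
Smg9 intron 6, chr7:24414879-24414938, plus strand: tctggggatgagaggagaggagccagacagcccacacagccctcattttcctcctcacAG
Smg9 intron 10, chr7:24420516-24420575, plus strand: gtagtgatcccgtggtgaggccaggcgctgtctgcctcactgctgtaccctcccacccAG

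Pyrimidines made up 85% of the 20 bases before the AG in Smg5 introns 12 and 20, Smg6 intron 17 and Smg9 intron 6, 75% in Smg9 intron 10 and 65% in Smg5 intron 16. With the drug in PyMT-M, Smg9 intron 6 differed by 2.18 (SE 0.52) on the log2 scale, Smg5 intron 16 by 1.95 (SE 0.40) and Smg5 intron 12 by 1.07 (SE 0.33). The edgeR adjusted p values were 0.000616, 0.000101 and 0.00607. These sequences describe 6 introns, and no other introns were compared with them.

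UPF1 is the helicase at the centre of the pathway. Its transcript is on the minus strand of chromosome 8 with 22 introns, none of which holds an exon of another annotated transcript. Over all of them, the percent of reads that were intronic was 13.0, 4.39, 12.9 and 8.92% in the 4 PyMT-M vehicle libraries and 69.4, 56.2, 58.0 and 57.9% in the 4 with the drug. Each drug library was far above each vehicle library (exact permutation test, 2-sided, p = 0.0286, the smallest that 4 against 4 can give). In 2208L the percent was 3.07, 8.36 and 8.31% with vehicle and 42.8, 31.9 and 33.8% with the drug, and in AT3 10.7, 17.1 and 11.2% against 30.1 and 47.8%. The groups did not overlap in either model (exact permutation p = 0.1 and 0.2, again the smallest possible).

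Intron 4 of Upf1 (chr8:70341641-70342009, 369 bases) stood at 3.33, 0, 1.37 and 2.94% in PyMT-M vehicle and at 90.8, 79.7, 77.9 and 75.2% with the drug. In vehicle tumors almost every read crossed this intron spliced, and with the drug most lay inside it. The log2 difference was 7.40 (SE 0.85, edgeR adjusted p = 1.47e-08). It was 8.75, 8.22 and 4.00% against 51.4 and 68.5% in AT3 (log2 4.00, SE 0.84, adjusted p = 0.00127), and 0, 0 and 16.0% against 72.4, 57.4 and 69.8% in 2208L (log2 4.58, SE 0.86, adjusted p = 0.000368). In both models the groups were again apart. The AT3 call was lost without AT3 H3B-8800 replicate 2 (log2 2.50), as were those of introns 2, 3, 5, 8 and 13 (log2 2.07, 1.21, 1.86, 3.35 and 2.67). That fit leaves 1 AT3 drug library, replicate 1, which has few 5′ reads. Intron 2 in AT3 (log2 3.36, SE 1.20, adjusted p = 0.0442) was also lost without each AT3 vehicle library (adjusted p from 0.0609 to 0.124), without any of 5 single libraries of the other models (adjusted p from 0.0506 to 0.0558) and without the 6 libraries with muscle or B cell transcripts (2.77, adjusted p = 0.16). Intron 3 was lost without AT3 vehicle replicate 3 (adjusted p = 0.0557), and intron 8 without AT3 vehicle replicate 2 or 3 (adjusted p = 0.0616 and 0.0846).

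Intron 5 (chr8:70340712-70341459, 748 bases) stood at 3.77, 0, 0 and 9.30% in PyMT-M vehicle and 81.7, 69.3, 75.4 and 74.6% with the drug (log2 6.47, SE 0.79, edgeR adjusted p = 5.63e-08). No read lay in it among 80 overlapping reads of the 2208L vehicle libraries, which allows up to 3.75% by 3 reads, while the drug libraries stood at 57.1, 38.9 and 34.0%. Intron 3 (chr8:70342178-70343334, 1157 bases) was partly retained before treatment, at 30.6, 7.07, 27.4 and 40.9% in PyMT-M vehicle, and reached 94.6, 85.9, 90.1 and 82.9% with the drug (log2 4.33, SE 0.60, adjusted p = 5.74e-07). The drug libraries were above all vehicle libraries for both introns.

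Introns called higher in each of the 3 models numbered 14 of the 83 (10.7% of all introns), and 8 of them were in Upf1 (introns 2, 3, 4, 5, 6, 12, 13 and 14). That count depended on AT3 H3B-8800 replicate 2: without it most were lost, those of Upf1 among them. The AT3 drug group is then replicate 1 alone, which has few 5′ reads. Without the 6 libraries with muscle or B cell transcripts the count was 6, Smg1 intron 39 and Upf1 introns 3, 4, 5, 6 and 12. Leaving out any 1 library other than the AT3 drug libraries gave 9 to 17. Intron 13 in 2208L (log2 2.74, SE 0.90, edgeR adjusted p = 0.0266) was lost without those 6 libraries (2.22, adjusted p = 0.198), without the 4 with few 5′ reads (2.22, adjusted p = 0.0554) and without any of vehicle replicates 1 and 2 and H3B-8800 replicates 1 and 3 (adjusted p from 0.051 to 0.123).

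The size of the difference varied along Upf1, as introns 15, 19 and 22 show, which were picked after their values were seen. Mean retention in PyMT-M was 11.1% ± 2.08 (SD, n = 4) in intron 15 with the drug against 3.73% ± 2.06 (n = 4) with vehicle, and in intron 19 it was 22.2% ± 1.04 against 13.7% ± 9.25. Intron 15 passed the test in PyMT-M (log2 1.84, SE 0.70, adjusted p = 0.0231) and intron 19 did not (log2 0.79, SE 0.61, adjusted p = 0.26). The last intron, 22, rose from 24.8% ± 11.5 to 58.9% ± 10.2 (log2 1.75, SE 0.47, adjusted p = 0.00187).

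**Figure D2:**
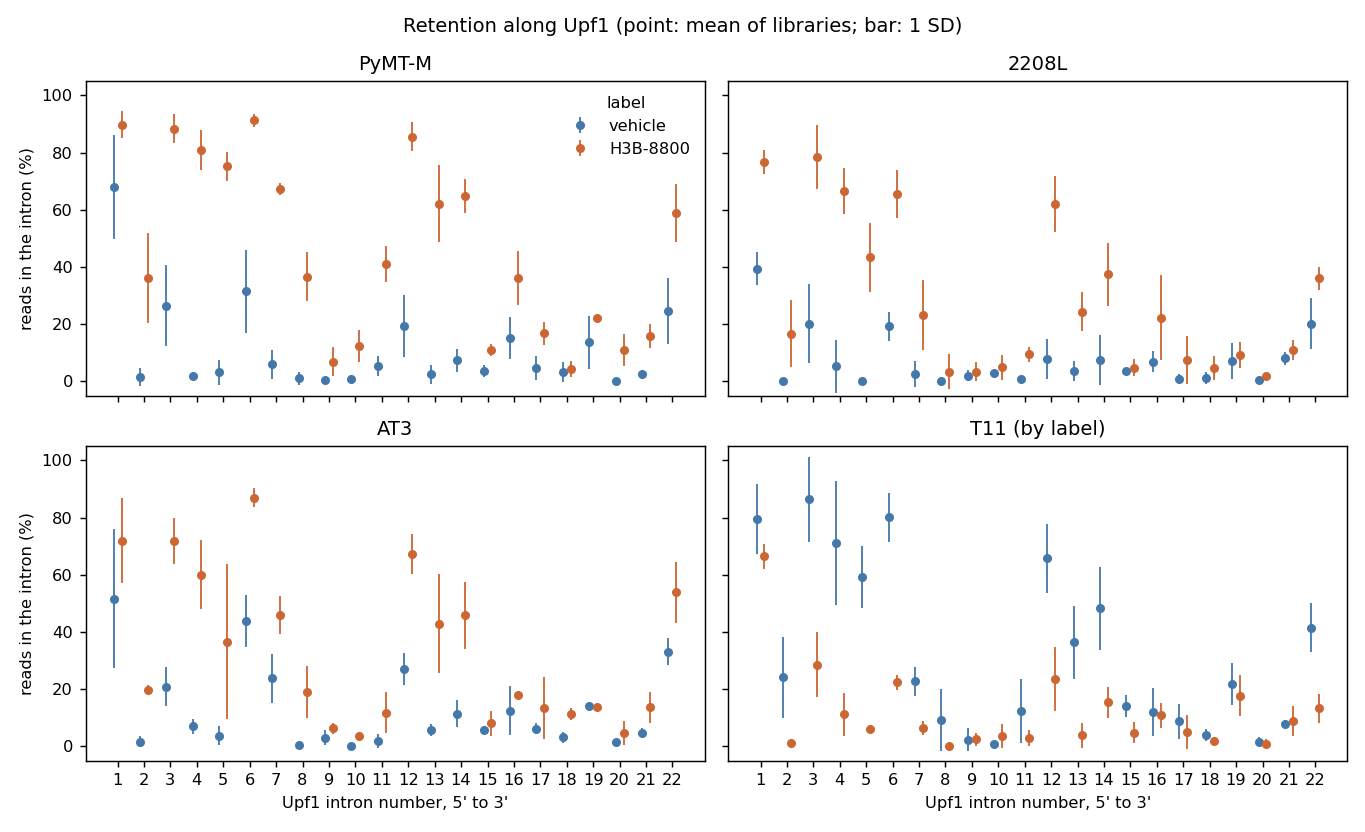
Percent of reads inside each of the 22 Upf1 introns (y axis), numbered from the 5′ end (x axis), in the 4 models. Points are group means over 2 to 4 libraries and bars 1 SD. In PyMT-M intron 4 stands at 1.91% with vehicle and 80.9% with H3B-8800, and in T11 the libraries labelled vehicle are the higher ones over most introns.

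SMG1 is the kinase that phosphorylates UPF1, and SMG9 is a subunit that binds and restrains it. Smg1 intron 39 (chr7:118160409-118163151, minus strand, 2743 bases) stood at 11.5, 15.4, 9.52 and 45.7% in PyMT-M vehicle and at 96.8, 76.1, 87.6 and 86.6% with the drug. The highest vehicle library, replicate 4, is 1 of the 4 with few 5′ reads, and was still below every drug library. The log2 difference was 3.89 (SE 0.67, edgeR adjusted p = 9.29e-06). It was 4.62 (SE 0.94, adjusted p = 0.000928) in AT3 and 4.16 (SE 0.92, adjusted p = 0.00178) in 2208L. Intron 46 (chr7:118154751-118155925, 1175 bases) had no read inside among 80 overlapping reads of the AT3 vehicle libraries, which allows up to 3.75%, and stood at 30.8 and 40.4% with the drug. Smg1 intron 36 did not pass in AT3, where no read lay inside among 40 overlapping reads of the vehicle libraries. Without the 4 libraries with few 5′ reads its AT3 value was log2 5.65, from 1 drug library. With no vehicle read inside, this is no measure of size.

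Smg9 intron 9 (chr7:24417007-24420013, plus strand, 3007 bases) stood at 51.8, 24.6, 49.3 and 35.1% in PyMT-M vehicle and 93.7, 86.8, 83.5 and 86.2% with the drug (log2 3.22, SE 0.54, edgeR adjusted p = 6.89e-06). The neighbouring intron 8 (chr7:24416595-24416920, 326 bases) was nearly empty in vehicle tumors, at 1.75, 0, 3.85 and 0%, and reached 29.5, 53.8, 35.7 and 21.7% (log2 5.09, SE 0.99, adjusted p = 5.46e-05). Both introns were separated by group in PyMT-M, AT3 and 2208L. In AT3 intron 8 was at 10, 10 and 6.52% against 20.8 and 56.1% (log2 2.97, SE 1.03, adjusted p = 0.0387). That call was lost without any of the 3 vehicle libraries (adjusted p from 0.0602 to 0.121) and without the 6 libraries with muscle or B cell transcripts (3.07, adjusted p = 0.106). It was also lost without AT3 H3B-8800 replicate 2 (log2 1.65), as was intron 9 in AT3 (log2 1.17), a fit that leaves 1 AT3 drug library. In 2208L, no read lay in intron 8 among 145 overlapping reads with vehicle, which allows up to 2.07%, against 22.7, 25 and 10.53% with the drug. The 2208L calls of introns 8 and 9 were lost without the same 6 libraries (adjusted p = 0.0709 and 0.178). Intron 9 in 2208L was also lost without any 1 of 4 libraries, vehicle replicates 1 and 3 and H3B-8800 replicates 1 and 3 (adjusted p from 0.0546 to 0.137).

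SMG5 and SMG6 act downstream of phosphorylated UPF1. SMG6 is an endonuclease that cuts the target near the early stop codon, and SMG5 takes part in recruiting phosphatase and decay enzymes. Smg5 intron 13 (chr3:88353139-88353875, plus strand, 737 bases) stood at 20.4, 12.7, 20.9 and 10.3% in PyMT-M vehicle and 74.5, 70.0, 71.2 and 77.3% with the drug (log2 3.52, SE 0.49, edgeR adjusted p = 3.72e-07). It stood at 2.90, 15.5 and 9.88% against 42.0, 43.6 and 32.5% in 2208L (log2 2.27, SE 0.57, adjusted p = 0.00467). The groups did not overlap in either model. The 2208L call was lost without the 6 libraries (log2 1.83, adjusted p = 0.0848), and the AT3 call (log2 1.98, SE 0.57, adjusted p = 0.0125) without AT3 vehicle replicate 3 (1.86, adjusted p = 0.0572). The AT3 call was also lost without AT3 H3B-8800 replicate 2 (1.60), which leaves 1 drug library.

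Smg6 behaved unlike Smg5. Its intron 17 (chr11:75159388-75159824, plus strand, 437 bases) stood at 23.2, 12.9, 27.6 and 6.15% in PyMT-M vehicle and 53.0, 45.3, 52.2 and 51.2% with the drug (log2 1.86, SE 0.50, edgeR adjusted p = 0.00185). Introns 8 and 10, of 35632 and 48397 bases, were called lower in PyMT-M (log2 -1.55, SE 0.54, adjusted p = 0.014, and -3.19, SE 0.97, adjusted p = 0.00517), but their libraries overlapped between the groups. Their mean over the 3 models was near 0 (log2 -0.13, SE 0.36, and -0.21, SE 0.67). Over all introns of Smg6 the intronic percent was 36.3, 39.0, 35.8 and 62.2% with vehicle and 47.8, 41.4, 47.2 and 42.0% with the drug in PyMT-M, where replicate 4 of vehicle was the highest of all 8 (exact permutation p = 0.914).

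EIF4A3 is the helicase that anchors the exon junction complex to RNA. In vehicle tumors of PyMT-M, 2208L and AT3 its transcript held few intronic reads, at 3.51 to 8.53% in each library, the least of the 9 except in 2208L vehicle replicate 1 (3.94%, with Upf1 at 3.07%). In PyMT-M it rose to 29.5, 18.3, 16.9 and 18.1% from 6.09, 3.51, 6.43 and 6.97% (exact permutation p = 0.0286). Intron 2 (chr11:119296134-119297804, minus strand, 1671 bases) stood at 2.17, 2.04, 5.52 and 1.33% in PyMT-M vehicle and 47.9, 34.0, 33.6 and 31.4% with the drug (log2 4.46, SE 0.68, edgeR adjusted p = 1.43e-06). It stood at 2.69, 2.21 and 2.40% against 6.02 and 23.6% in AT3 (log2 2.86, SE 0.78, adjusted p = 0.00942), a call that was lost without AT3 H3B-8800 replicate 2, which leaves 1 drug library (log2 1.05). In 2208L it stood at 0, 2.88 and 0% against 4.71, 2.25 and 3.85%, with overlap, and did not pass (log2 1.98, SE 0.88, adjusted p = 0.1). It passed without 2208L vehicle replicate 2, which leaves both vehicle libraries at 0 (adjusted p = 0.00792).

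UPF2 bridges UPF1 and the UPF3 proteins, and UPF3A is a paralog of UPF3B. Upf2 intron 18 (chr2:6040562-6046897, plus strand, 6336 bases) stood at 38.7, 14.5, 39.2 and 34.3% in PyMT-M vehicle and 63.9, 71.3, 63.5 and 80.8% with the drug (log2 2.14, SE 0.47, edgeR adjusted p = 0.000211). It was 4.76, 9.76 and 18.2% against 40.8, 36.7 and 37.5% in 2208L (log2 2.32, SE 0.64, adjusted p = 0.00891). The groups did not overlap in either model, and the 2208L call was lost without 2208L vehicle replicate 1 (log2 2.07, adjusted p = 0.0542) and without the 6 libraries with muscle or B cell transcripts (2.07, adjusted p = 0.0946). In AT3 the difference was 1.60 (SE 0.60, adjusted p = 0.0554). It passed with the stricter read minimum of 20 (1.60, adjusted p = 0.0381). It also passed without 2208L vehicle replicate 1, AT3 vehicle replicate 2, PyMT-M vehicle replicate 2 or 4, or T11 labelled vehicle replicate 1 (adjusted p from 0.0357 to 0.0495). Without AT3 H3B-8800 replicate 1, or without the 4 libraries with few 5′ reads, it was 2.04, from 1 AT3 drug library. Upf3a intron 3 (chr8:13787472-13791881, plus strand, 4410 bases) stood at 39.3, 13.3, 34.8 and 36.8% in PyMT-M vehicle and 73.0, 64.2, 70.7 and 71.7% with the drug (log2 2.37, SE 0.66, adjusted p = 0.00265). Among the 4 tested introns of Upf3a none was called in AT3 or 2208L with all libraries. Without the 4 with few 5′ reads the AT3 value of intron 3 was 2.05, from 1 drug library. In 2208L intron 3 stood at 0, 22.8 and 5.71% against 31.0, 41.0 and 36.5%, without overlap (log2 2.32, SE 0.86, adjusted p = 0.0505), and 11 of the 25 fits that left out 1 library called it.

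Upf3b, the partner that links UPF2 to the exon junction complex, went the other way. Its intronic percent over all 9 introns was 50.1, 35.9, 52.2 and 49.3% in PyMT-M vehicle, the highest of the 9 genes there on average, and 30.2, 28.5, 21.3 and 25.4% with the drug. Every drug library was below every vehicle library (exact permutation p = 0.0286, the smallest possible). In AT3 the percent was 25.6, 39.6 and 26.3% against 20.2 and 21.9%, again without overlap (exact permutation p = 0.2, the smallest possible), and in 2208L 19.8, 40.5 and 38.0% against 24.8, 21.6 and 20.1%, where 1 vehicle library was the lowest of the 6 (exact permutation p = 0.4).

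The lower calls of Upf3b in PyMT-M were in introns 4, 7 and 9. Intron 9, the last (chrX:37092662-37095521, minus strand, 2860 bases), stood at 80.4, 68.6, 80.5 and 71.9% in PyMT-M vehicle and 59.3, 59.3, 45.7 and 47.7% with the drug (log2 -1.98, SE 0.39, edgeR adjusted p = 5.91e-05). In AT3 it stood at 61.0, 77.6 and 61.5% against 48.6 and 40.8% (log2 -1.31, SE 0.52, adjusted p = 0.0689), which passed with the read minimum of 20 (-1.31, adjusted p = 0.0483). Without the 4 libraries with few 5′ reads its AT3 value was -1.71, from 1 drug library. In 2208L it stood at 54.0, 84.2 and 84.0% against 66.1, 58.9 and 56.8% (log2 -1.42, SE 0.45, adjusted p = 0.0218). The mean over the 3 models was -1.57 (SE 0.27, adjusted p = 4.46e-06). The 2208L call was lost without any of 4 libraries in turn, H3B-8800 replicates 2 and 3 and vehicle replicates 2 and 3 (adjusted p from 0.0628 to 0.0781).

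Intron 7 of Upf3b (chrX:37097019-37099506, 2488 bases) stood at 70.0, 54.9, 78.9 and 68.8% in PyMT-M vehicle and 36.4, 29.1, 23.8 and 18.6% with the drug (log2 -2.59, SE 0.47, edgeR adjusted p = 1.91e-05). It is the only tested Upf3b intron that overlaps annotated exons of other transcripts, 2 of them, so its reads need not be retention alone. One is a coding exon of 39 bases at chrX:37099066-37099104 (mm10, minus strand), shown because reads that include it count as intronic here.
Upf3b exon inside intron 7: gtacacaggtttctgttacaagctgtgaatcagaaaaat

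Intron 4 (chrX:37102138-37104428, 2291 bases) had overlapping groups in PyMT-M, at 58.1, 24.2, 59.1 and 39.6% against 37.3, 34.9, 20.3 and 30.8% (log2 -1.26, SE 0.53, edgeR adjusted p = 0.0374). That call was lost without any of 5 of the 8 PyMT-M libraries (vehicle replicates 1 and 3 and H3B-8800 replicates 2, 3 and 4, adjusted p from 0.0522 to 0.134), so it rests on single libraries. It was also lost without the 6 libraries with muscle or B cell transcripts (-1.57, adjusted p = 0.0559). Introns 5 and 6 of the same gene, described after their values were seen, did not fall. Intron 5 (1890 bases) was at 0 to 19.6% in PyMT-M vehicle and 24.5 to 34.9% with the drug (log2 1.84, SE 0.83, adjusted p = 0.0523), and intron 6 (403 bases) at 0 to 10.3% against 10.9 to 21.3% (log2 2.15, SE 0.91, adjusted p = 0.04). In T11 intron 4 stood at 15.8, 28.8 and 3.64% in the libraries labelled vehicle and 58.3, 39.6 and 56.0% in those labelled H3B-8800 (log2 2.36, SE 0.65, adjusted p = 0.00866), a call lost without labelled vehicle replicate 3 (1.83, adjusted p = 0.0661).

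**Figure D3:**
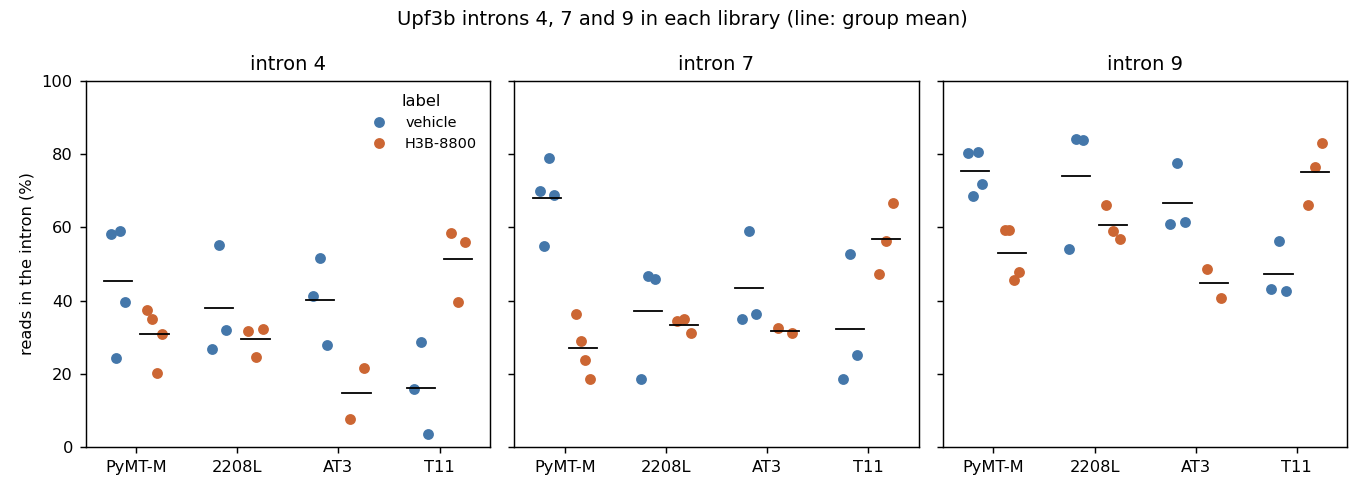
Percent of reads inside Upf3b introns 4, 7 and 9 (y axis) in each library, by model (x axis) and label. Points are libraries and lines group means. Intron 9 in PyMT-M lies at 68.6 to 80.5% with vehicle and 45.7 to 59.3% with H3B-8800, and in T11 the libraries labelled H3B-8800 are the higher ones.

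In T11 the introns moved against the labels. Of the 83 introns, 27 were called (32.5%, beside 20.4% of all introns), 25 lower in the libraries labelled H3B-8800 (19.7% of all) and 2 higher (0.759% of all), both in Upf3b. Without the 6 libraries with muscle or B cell transcripts 12 were called, all lower, and without the 4 with few 5′ reads 35. The median log2 difference was -1.02, beside -0.84 over all tested introns. Upf1 intron 4 stood at 46.9, 88.2 and 78.6% in the libraries labelled vehicle and 19.1, 4.08 and 10.6% in those labelled H3B-8800 (log2 -4.37, SE 0.78, edgeR adjusted p = 0.000119). Upf3b intron 9 stood at 43.2, 56.3 and 42.6% against 66.1, 76.4 and 83.0% (log2 1.58, SE 0.46, adjusted p = 0.0115), a call lost without the 6 libraries (1.41, adjusted p = 0.0862) and without labelled vehicle replicate 3 (1.34, adjusted p = 0.07). The 6 libraries also decided the T11 calls of Upf1 intron 2 (-4.38, adjusted p = 0.0661 without them), Smg9 intron 9 (-2.06, adjusted p = 0.0929), Smg1 intron 46 (-2.35, adjusted p = 0.244) and Upf3b intron 4 (2.01, adjusted p = 0.096), and Upf3a intron 3 passed without the 4 (-1.84, adjusted p = 0.00379).

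The T11 difference minus the mean of the other 3 models was called for 54 introns (52.1% of all introns), 51 of them lower (49.6%) and 3 higher (2.56%). Of the 14 introns that were higher in all 3 other models, all 14 had a negative value in T11 and 13 were called lower, a set that shrank to 2 introns without AT3 H3B-8800 replicate 2. Over all introns of Upf1, the libraries labelled vehicle were at 24.5, 54.1 and 55.8% and those labelled H3B-8800 at 8.38, 10.9 and 14.1%, without overlap. Eif4a3 did not share the pattern in T11, at 3.50, 5.98 and 3.02% against 4.27, 4.86 and 5.78%.

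Over the 9 genes together, the intronic percent in PyMT-M was 19.6% ± 5.28 (SD, n = 4) with vehicle and 41.5% ± 4.46 (n = 4) with H3B-8800 (exact permutation test, 2-sided, p = 0.0286, the smallest possible). In 2208L it was 11.5% ± 2.98 (n = 3) against 19.3% ± 1.42 (n = 3, p = 0.1, the smallest possible, exact permutation). In AT3 it was 15.5% ± 4.68 (n = 3) against 26.0% ± 7.63 (n = 2), with overlap between single libraries (exact permutation p = 0.4). In T11 by label it was 16.7% ± 6.68 (n = 3) against 11.5% ± 2.29 (n = 3, exact permutation p = 0.3). These values weight introns by their reads. When the percents of the tested introns were averaged with equal weight, T11 stood at 29.0% against 18.6% by label and AT3 at 22.2% with vehicle against 36.2% with the drug, both without overlap (exact permutation p = 0.1 and 0.2, the smallest possible). In 2208L the difference was then 12.8 points in place of 7.89. Over introns without an annotated exon AT3 was also without overlap, at 11.02% against 22.1% (exact permutation p = 0.2).

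The second question was whether the level of the 9 transcripts changed, measured as the spliced reads summed over a gene's introns in CPM. The intron test above was relative to the same spliced reads. A change in level and an opposite change in retention are therefore in part the same measurement. In bulk tumors, fewer cells of a type and less RNA per cell cannot be told apart. In PyMT-M, 3 of the 9 genes were called by edgeR's quasi-likelihood test with adjustment over 13001 genes (24.8% of all genes), 1 higher (10.2%) and 2 lower (14.6%). In 2208L 1 was called (10.3%), lower (5.67%, with 4.67% of all genes higher). In AT3 none was (0.3%), with 0 also at an unadjusted p under 0.05 and 0 by DESeq2. In the mean of the 3 models 4 were called (23.9%), 1 higher (10.7%) and 3 lower (13.2%). The scale moved these splits. In PyMT-M, 0 were higher and 3 lower when library size alone set the scale (Upf3a added at -0.45, Upf3b lost), 2 higher and 2 lower by DESeq2 (Upf2 added at 0.47), and 2 higher and 0 lower with intronic reads added (Upf1 at 0.49 and Smg5 at 0.53). In the mean, 0 were higher and 3 lower on library size alone and 1 higher (Smg5, 0.20) and 1 lower (Upf3a, -0.27) with intronic reads added. In 2208L DESeq2 called 1 higher (Smg5, 0.27) and 3 lower (Smg9, Upf1 and Upf3a). The median log2 difference of the 9 was 0.01 in PyMT-M, beside 0.02 over all genes, and 0.05 in the mean of the 3 models, also beside 0.02.

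**Figure D4:**
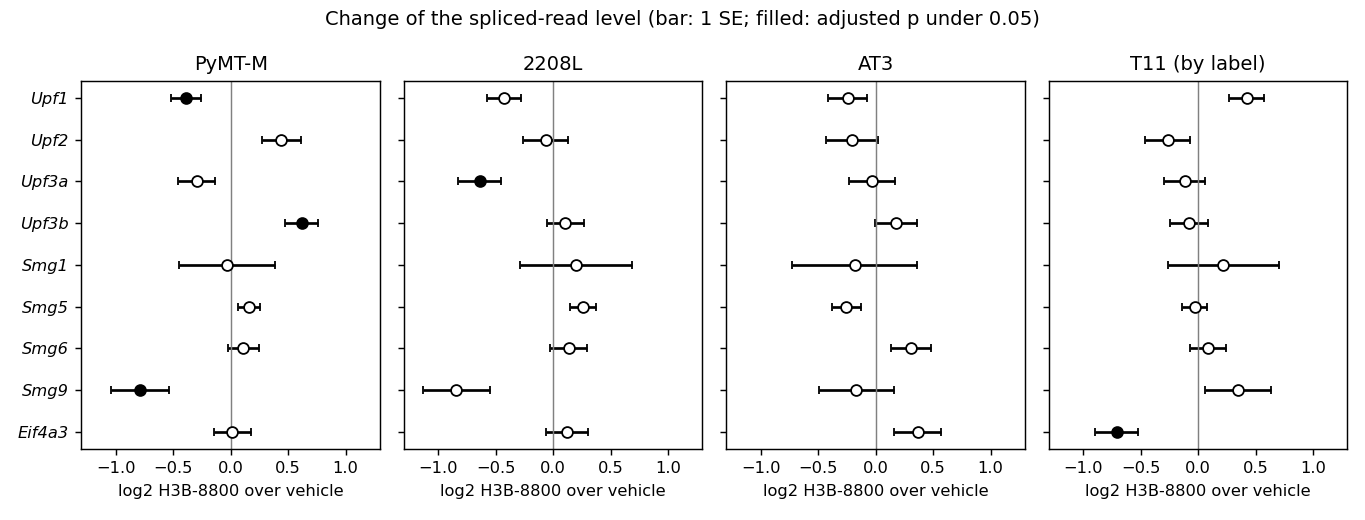
Log2 difference of the spliced-read level, H3B-8800 over vehicle (x axis), for the 9 genes (y axis) in the 4 models. Bars are 1 SE and filled points have an adjusted p under 0.05. Upf3b lies at 0.62 and Smg9 at -0.79 in PyMT-M, and Upf1 lies below 0 in PyMT-M, 2208L and AT3 and above 0 in T11 by label.

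Upf3b rose in PyMT-M: it stood at 31.5, 26.9, 30.4 and 28.7 CPM with vehicle and 39.4, 49.9, 49.5 and 41.7 CPM with the drug. The groups did not overlap (log2 0.62, SE 0.14, edgeR adjusted p = 0.00339), and the call held without each of the 25 libraries in turn. It was lost when library size alone set the scale (0.45, adjusted p = 0.0714), and the sign turned when intronic reads were added to the gene count (-0.19, adjusted p = 0.412). The mean of the 3 models was 0.30 (SE 0.09, adjusted p = 0.0243). It was lost when library size alone set the scale (0.18, adjusted p = 0.316), it turned with intronic reads added (-0.24, adjusted p = 0.112), and it was lost without 2208L H3B-8800 replicate 2, AT3 H3B-8800 replicate 2 or AT3 vehicle replicate 3 (adjusted p from 0.0507 to 0.0963). In 2208L Upf3b stood at 30.2, 28.6 and 28.3 against 27.9, 37.7 and 28.2 CPM, and in AT3 at 34.6, 46.6 and 35.2 against 38.8 and 48.8 CPM, neither past the test (adjusted p = 0.725 and 0.76).

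Upf1 went down in spliced reads: it stood at 103, 110, 112 and 124 CPM in PyMT-M vehicle and 72.7, 104.9, 77.1 and 88.1 CPM with the drug. One drug library lay among the vehicle libraries (log2 -0.39, SE 0.13, edgeR adjusted p = 0.0323). The mean of the 3 models was -0.35 (SE 0.09, adjusted p = 0.00555). Both signs turned when intronic reads were added to the gene count, to 0.49 (adjusted p = 0.0079) in PyMT-M and 0.17 (adjusted p = 0.147) in the mean. The PyMT-M call was also lost without 11 of the 25 libraries in turn (adjusted p from 0.0511 to 0.106), 6 of them from PyMT-M (H3B-8800 replicates 1 and 3 and each vehicle library) and 5 from other models (2208L vehicle replicates 1 and 2, AT3 vehicle replicate 1 and T11 labelled H3B-8800 replicates 2 and 3). It was lost without the 4 libraries with few 5′ reads (-0.35, adjusted p = 0.0679) and without the 6 with muscle or B cell transcripts (-0.40, adjusted p = 0.0711). Counted over its last 5 introns alone the difference was -0.23 (adjusted p = 0.369). In 2208L Upf1 stood at 98.5, 102 and 110 against 72.8, 85.8 and 72.5 CPM (log2 -0.43, SE 0.15, adjusted p = 0.0715), with no overlap.

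Smg9 stood at 44.5, 52.6, 48.5 and 64.9 CPM in PyMT-M vehicle and 22.8, 30.9, 37.2 and 30.7 CPM with the drug. The groups did not overlap (log2 -0.79, SE 0.25, edgeR adjusted p = 0.0254). In 2208L it stood at 49.96, 45.6 and 46.6 against 25.6, 27.6 and 25.9 CPM, also apart (log2 -0.84, SE 0.29, adjusted p = 0.0668), which passed without the 4 libraries with few 5′ reads (-0.82, adjusted p = 0.0042), and the mean of the 3 models was -0.60 (SE 0.17, adjusted p = 0.0128). With intronic reads added the PyMT-M value was 0.02 (adjusted p = 0.938) and the mean -0.13 (adjusted p = 0.367), and with the median over introns as the gene count they were 0.03 and 0.15. The PyMT-M call was lost without PyMT-M H3B-8800 replicate 1 (-0.67, adjusted p = 0.0808), vehicle replicate 2 (-0.75, 0.0568) or vehicle replicate 4 (-0.67, 0.0839), and the mean without AT3 H3B-8800 replicate 2 (-0.43, 0.0614). Without the 6 libraries with muscle or B cell transcripts both were lost (-0.59, adjusted p = 0.236, and -0.53, adjusted p = 0.0782).

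Upf3a stood at 39.9, 35.8 and 37.0 CPM in 2208L vehicle and 23.4, 21.9 and 26.9 CPM with the drug. The groups were apart (log2 -0.64, SE 0.18, edgeR adjusted p = 0.0314). The call was lost without each of 5 of the 6 2208L libraries (vehicle replicates 1 and 3 and each H3B-8800 library, adjusted p from 0.0535 to 0.112), and the sign turned with the median over introns as gene count (0.73, adjusted p = 0.739). The mean of the 3 models was -0.32 (SE 0.11, adjusted p = 0.0299), also turned by that count (0.26, adjusted p = 0.955) and lost without any of 6 libraries of 2208L and AT3 (2208L H3B-8800 replicates 1 and 2, 2208L vehicle replicate 1, AT3 H3B-8800 replicate 2 and AT3 vehicle replicates 2 and 3, adjusted p from 0.0543 to 0.125). Both were lost without the 6 libraries with muscle or B cell transcripts (-0.57, adjusted p = 0.175, and -0.27, adjusted p = 0.191). In PyMT-M Upf3a did not pass (log2 -0.30, SE 0.16, adjusted p = 0.178).

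The other 5 genes did not pass in PyMT-M, AT3, 2208L or their mean in edgeR with all libraries. Upf2 came closest, at 67.1, 60.7, 72.8 and 57.2 CPM in PyMT-M vehicle and 87.7, 88.4, 95.4 and 78.1 CPM with the drug. These groups did not overlap (log2 0.44, SE 0.17, edgeR adjusted p = 0.0645), and 4 of the 25 fits that left out 1 library, each from AT3 or T11, passed it (adjusted p from 0.0111 to 0.0471), as did the fit without the 4 libraries with few 5′ reads (0.38, adjusted p = 0.0115). Smg6 passed in the mean of the 3 models without AT3 H3B-8800 replicate 1 (0.28, adjusted p = 0.024, against 0.18 and 0.156 with it) and without those 4 libraries (0.25, adjusted p = 0.0355). Smg5 stood at 144, 159 and 137 against 180, 174 and 172 CPM in 2208L, again apart (log2 0.26, SE 0.11, adjusted p = 0.14). Smg1 was lowest in 2 of the 4 libraries with few 5′ reads, at 16.8 CPM in T11 labelled vehicle replicate 1 and 32.9 CPM in AT3 H3B-8800 replicate 1, against 47.6 to 128 CPM in the others. The other two of those 4 stood at 84.5 and 72.2 CPM, and the part of 5′ coverage in the level of Smg1 was not tested. Its SE in PyMT-M was 0.42.

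**Figure D5:**
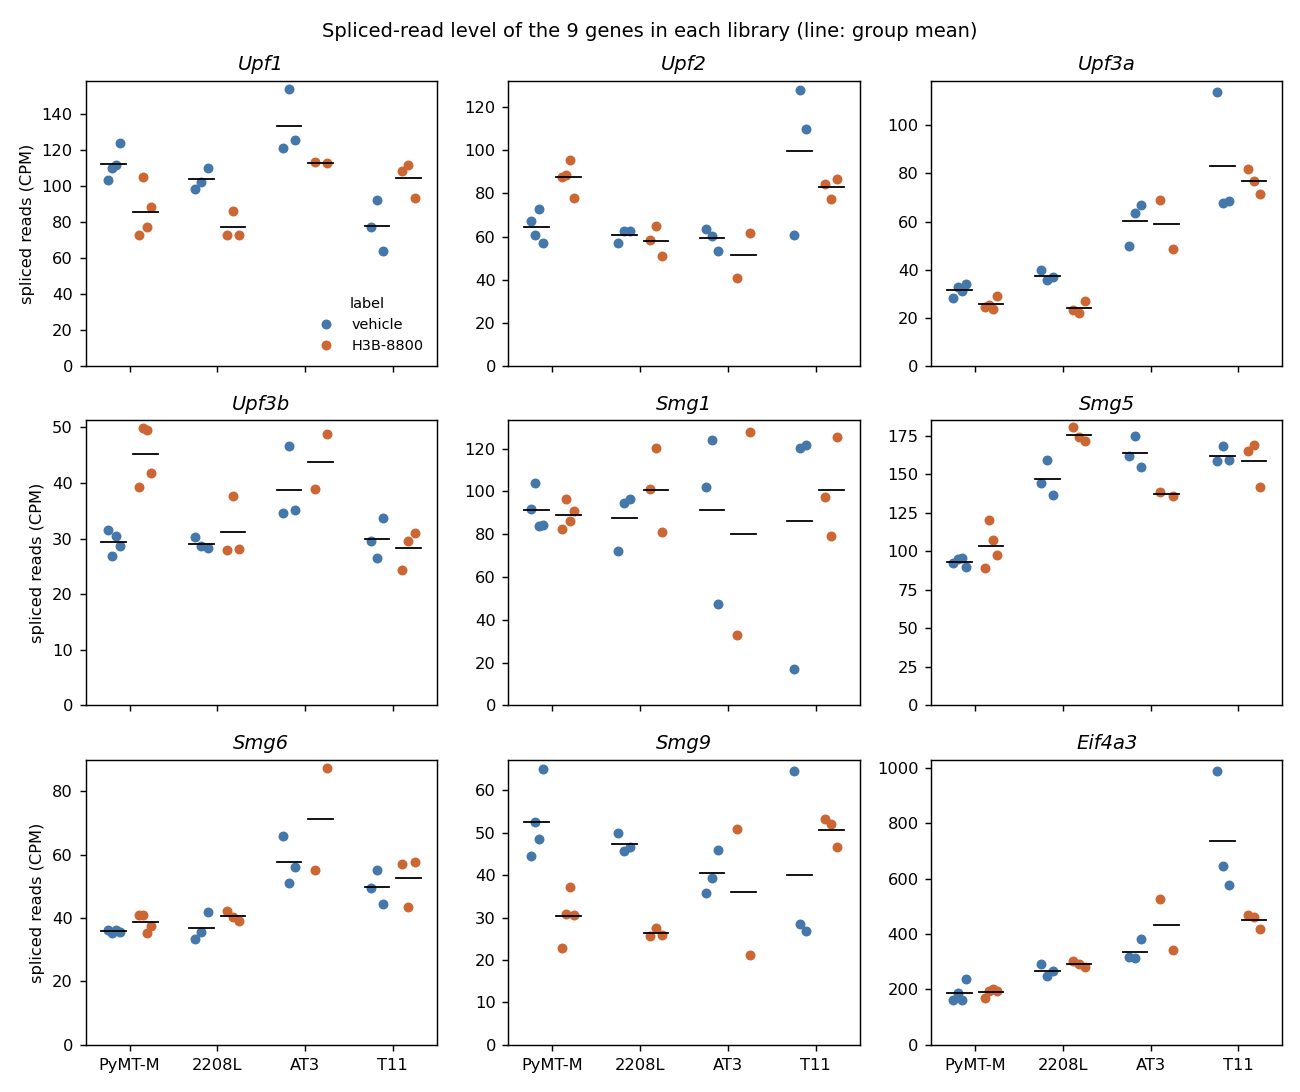
Spliced-read level in CPM (y axis, from 0) of the 9 genes in each library, by model (x axis) and label. Points are libraries and lines group means. Upf3b in PyMT-M lies at 26.9 to 31.5 CPM with vehicle and 39.4 to 49.9 CPM with H3B-8800, and Eif4a3 is highest in the T11 libraries labelled vehicle.

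No gene of the 9 differed in drug effect between PyMT-M and AT3, PyMT-M and 2208L or 2208L and AT3 (edgeR, 1.1%, 1.92% and 0.0154% of all genes called), and 2, 1 and 2 of them had an unadjusted p under 0.05. By DESeq2 0, 0 and 1 were called. An effect called in PyMT-M and not in AT3 is therefore not shown to differ between them.

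In T11 by label, 1 gene was called (11.7% of all genes), Eif4a3, lower (5.07%, with 6.66% of all genes higher). It stood at 987, 646 and 576 CPM in the libraries labelled vehicle and 469, 463 and 420 CPM in those labelled H3B-8800 (log2 -0.71, SE 0.19, edgeR adjusted p = 0.0175). The groups did not overlap. The highest library is 1 of the 4 with few 5′ reads, and without it the difference was -0.44 (adjusted p = 0.094). The call was also lost without labelled H3B-8800 replicate 2 (-0.70, adjusted p = 0.052) or 3 (-0.62, adjusted p = 0.0745), without the 6 libraries (-0.83, adjusted p = 0.0712) and when library size alone set the scale (-0.44, adjusted p = 0.0756). Upf1 stood at 77.4, 92.0 and 64.0 against 108, 111 and 93.1 CPM (log2 0.42, SE 0.15, adjusted p = 0.0706), which passed when library size alone set the scale (0.67, adjusted p = 0.0284) and without AT3 vehicle replicate 2, T11 labelled H3B-8800 replicate 3 or T11 labelled vehicle replicate 2 (adjusted p from 0.0332 to 0.0495). Without labelled vehicle replicate 1, Smg9 (0.35, adjusted p = 0.475 with it) passed at 0.88 (adjusted p = 0.0293) and Upf2 (-0.27, adjusted p = 0.416 with it) at -0.52 (adjusted p = 0.0347), as both did without the 4 libraries (adjusted p = 0.00178 and 0.00688). By label, the split of 0 higher and 1 lower was 1 higher (Upf1) and 0 lower on library size alone, and 1 and 1 by DESeq2. The T11 difference minus the mean of the other 3 models was called for 3 genes (26.1% of all genes), 2 higher (13.9%) and 1 lower (12.2%): Upf1 (0.77, SE 0.17, adjusted p = 0.00247), Smg9 (0.95, SE 0.33, adjusted p = 0.0402) and Eif4a3 (-0.88, SE 0.21, adjusted p = 0.00475).

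The levels in vehicle tumors of PyMT-M, AT3 and 2208L were compared as well. PyMT-M was lower than AT3, which grew in the same host strain, in 5 of the 9 genes (60% of all genes called, 32.1% higher and 28.0% lower). The log2 differences were -0.93 (SE 0.17) for Upf3a, -0.84 (SE 0.17) for Eif4a3, -0.82 (SE 0.10) for Smg5, -0.69 (SE 0.15) for Smg6 and -0.40 (SE 0.15) for Upf3b (edgeR adjusted p from 7.53e-07 to 0.0284). Smg5, for example, stood at 92.6, 94.8, 95.4 and 89.5 CPM in PyMT-M and 162, 175 and 155 CPM in AT3, far apart. PyMT-M was lower than 2208L in 2 genes (45.5%, 22.0% lower), Smg5 (-0.66, SE 0.10, adjusted p = 2.87e-05) and Eif4a3 (-0.51, SE 0.17, adjusted p = 0.019), and 2208L lower than AT3 in 3 (45.2%, 20.7% lower), Upf3a (-0.68, SE 0.18), Smg6 (-0.64, SE 0.16) and Upf3b (-0.42, SE 0.16, adjusted p = 0.0435). Model and host strain cannot be told apart in the last 2 comparisons, and the 3 comparisons share vehicle groups.

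Of the 83 introns, none differed between PyMT-M and AT3 vehicle tumors (edgeR, 0.605% of all introns, 18 at an unadjusted p under 0.05, 2 by limma). In PyMT-M 6 were higher than in 2208L (7.3% called in either direction, 6.86% higher), and 3 lower in 2208L than in AT3 (2.96%, 2.59% lower). Those 6 were in Eif4a3 (introns 1 and 4), Smg6 (15), Upf2 (18), Smg1 (54) and Upf3b (7), named after their values were seen. Neither count held without the 4 libraries with few 5′ reads or without the 6 with muscle or B cell transcripts, where both were 0.

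Between genes, levels were set side by side as CPM per intron, which is spliced reads per junction and not per length. It is not corrected for 5′ coverage or for reads lost to retained introns. In PyMT-M vehicle libraries the ratio of 5′ to 3′ spliced reads was 0.27 to 0.30 for Smg1 and 0.39 to 0.81 for Smg5. In PyMT-M vehicle tumors the order was Eif4a3 at 17.1 ± 3.26 (SD, n = 4), Upf1 5.10 ± 0.381, Smg5 4.43 ± 0.127, Smg9 4.05 ± 0.682, Upf3a 3.95 ± 0.311, Upf3b 3.27 ± 0.223, Upf2 3.07 ± 0.330, Smg6 1.99 ± 0.0284 and Smg1 1.47 ± 0.152 CPM per intron. This is the order of group means, and the libraries of Smg9 overlap those of Upf1, Smg5, Upf3a, Upf3b and Upf2. Smg5 and Upf3a do not overlap each other (4.26 to 4.54 against 3.53 to 4.24 CPM per intron), and Upf3b and Upf2 overlap. Eif4a3 was the highest in all 8 groups, up to 66.9 ± 20.01 CPM per intron in T11 labelled vehicle.

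The gene with the most similar level over the 25 libraries (Pearson r of log2 CPM plus 1) was U2af1 for Eif4a3 (r = 0.97), Kmt2a for Smg1 (0.96), Cdc16 for Upf3a (0.96), Plekha3 for Smg5 (0.93), Fastk for Smg9 (0.92), Fam131b for Smg6 (0.91), Tomm34 for Upf1 (0.89), Mrps2 for Upf2 (0.89) and Mapk9 for Upf3b (0.81). The libraries share models, drug and depth, so these values describe a pattern only. Among the 9 themselves, Eif4a3 and Upf3a were the most alike (0.85), and Upf3b had no member above 0.19.

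Other genes of the pathway, from lists chosen by function, were counted in the mean of the 3 models. For comparison, 10.7% of all genes were higher and 13.2% lower in that mean. Of 8 further decay factors, 0 were higher and 4 lower: Dhx34, a helicase of the pathway (log2 -0.996, SE 0.18, edgeR adjusted p = 0.00039), Ruvbl2 (-0.68, SE 0.14) and Ruvbl1 (-0.47, SE 0.11), ATPases that act with SMG1, and Gnl2 (-0.39, SE 0.12, adjusted p = 0.0191). The median of the 8 was -0.16. In PyMT-M the same 4 were lower, Dhx34 by a log2 of -1.84 (SE 0.27, adjusted p = 5.91e-05).

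Of the exon junction complex and its partners, 1 of 9 tested was higher, the cap-binding subunit Ncbp2 (log2 0.34, SE 0.08, edgeR adjusted p = 0.00441), and 3 (Pym1, Sap18, Ncbp3) were not tested. Of 5 tested genes of translation termination and poly(A) binding, the 2 release factors were higher, Etf1 (0.51, SE 0.08, adjusted p = 0.000194) and Gspt1 (0.31, SE 0.06, adjusted p = 0.000892). Both were lower in T11 by label (-0.63, SE 0.15, adjusted p = 0.00904, and -0.47, SE 0.10, adjusted p = 0.00656). Gspt2 was not tested.

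Of 14 decapping and decay enzymes, 1 was higher (Pnrc2, a decapping cofactor, log2 0.29, SE 0.10, edgeR adjusted p = 0.037, named after its values were seen) and 4 lower in the mean of the 3 models. The lower ones were the nuclear exonuclease Xrn2 (log2 -0.48, SE 0.07, edgeR adjusted p = 3.84e-05), the decapping factors Dcp1b (-0.88, SE 0.18, adjusted p = 0.00122) and Edc4 (-0.40, SE 0.10, adjusted p = 0.00776), and the exosome nuclease Exosc10 (-0.29, SE 0.09, adjusted p = 0.0209). Xrn2 and Dcp1b were higher in T11 by label (0.59, SE 0.11, and 1.31, SE 0.31).

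Of 7 tested transcripts known as targets of the pathway, 1 was higher, the stress factor Ddit3 (log2 0.70, SE 0.24, edgeR adjusted p = 0.0401), and none lower. Trib3 stood at -0.48 (SE 0.20, adjusted p = 0.0922) and Atf4 at 0.23 (SE 0.13, adjusted p = 0.206). The median of the 7 was -0.01. Upp1 was lower in PyMT-M (-1.51, SE 0.39, adjusted p = 0.00719) and not in the mean (-0.34, SE 0.24, adjusted p = 0.34). Gas5, Snhg1 and Snhg12 were not tested. When library size alone set the scale, which moved the median of all genes to -0.10, the calls of Ncbp2 (0.21, adjusted p = 0.116), Gspt1 (0.18, adjusted p = 0.124), Pnrc2 (0.16, adjusted p = 0.402) and Ddit3 (0.58, adjusted p = 0.075) were lost, and the other genes of these lists named as higher or lower in the mean of the 3 models passed. Trib3 (-0.61, adjusted p = 0.0279) and Acin1 of the exon junction list (-0.35, adjusted p = 0.0164, against -0.22 and 0.0929 on the main scale) passed as lower on that scale alone. Srrm1 of the same list (0.25, adjusted p = 0.0873) passed as higher by DESeq2 (0.27, adjusted p = 0.041).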

How the data were processed

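RNA of 25 tumors was sequenced from stranded poly(A) libraries, per the labels' protocols; HISAT2 2.0.4 and builds mm10 and hg38 are named in the submitters' processing notes. The deposited files give, for each intron of 1 transcript per gene, 2 counts made by the authors: intronic reads and all overlapping reads. The deposited RPKM values were not used.

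The spliced reads of an intron were the overlapping minus the intronic count. Genes were tested on their summed spliced reads with edgeR 4.0.16 (quasi-likelihood, robust, TMM, 8 groups, 13001 genes with at least 1 CPM in 2 libraries). Introns were tested on intronic reads with the gene's spliced reads as offset (52042 introns with means of at least 5 intronic and 10 spliced reads). SEs came from the log2 difference and F. Percentages used exact permutation tests. Limits from 3 reads cover counting error only. Alternatives used DESeq2 1.42.0, limma 3.58.1, other gene counts and left-out libraries. The scripts were tested on simulated counts.

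The members and lists were chosen with earlier results of these data known. Introns were named as those with the smallest p of each gene, the 10 with the largest rise and up to 5 with the largest fall, of which 3 were called. Upf1 introns 15, 19 and 22, Smg6 introns 8 and 10 and Upf3b introns 5 and 6 were picked after their values were seen, and Smg5 introns 12, 16 and 20 and Smg9 introns 6 and 10 because an annotated transcript gave their sequence. The contrast of T11 with the other models, the last-5-intron count and the fit without the 4 libraries with few 5′ reads were chosen after seeing the data. The labels do not say that replicate numbers paired the tumors, so the numbers were not used as a block in the main fit. A read of unspliced or nuclear RNA counts as intronic, so the percentages are not shares of mature transcripts. The sequence of a further intron end and the values of a further pathway gene are not reported here.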

Additional observations from a re-analysis of the deposited data

Results flagged for a closer look

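Of 76 groups of 4 libraries examined, 11 had 1 library far from the other 3. The groups share reads, so this count cannot be set against a rate by chance. The PyMT-M vehicle groups of Upf1 introns 2 and 8 held 2 intronic reads each, and any read is marked as far from 3 libraries at 0. PyMT-M vehicle replicate 4, 1 of the 4 libraries with few 5′ reads, stood apart in 6: Smg1 intron 36 at 50%, Smg1 intron 39 at 45.7%, Upf1 intron 2 at 6.25%, Upf1 intron 8 at 4.35%, and the intronic percent of Smg1 at 36.0% and of Smg6 at 62.2%. PyMT-M H3B-8800 replicate 1 stood apart in 4: Eif4a3 intron 2 at 47.9%, and the intronic percent of Upf1 at 69.4%, of Smg1 at 41.0% and of Eif4a3 at 29.5%. PyMT-M H3B-8800 replicate 3 was low for Upf3a, at 40.3%.

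The T11 effect by label differed from the mean of the other 3 models (edgeR, adjusted p under the threshold of 0.05 for each) in the level of Eif4a3 (log2 -0.88), Smg9 (0.95) and Upf1 (0.77). Among the named introns the difference was negative for Upf1 introns 3 (-7.52), 4 (-9.69) and 13 (-8.00), for Smg5 intron 13 (-4.98), Smg9 intron 9 (-4.95), Smg1 intron 39 (-9.46), Upf3a intron 3 (-3.30), Eif4a3 intron 2 (-3.12), Upf2 intron 18 (-2.32) and Smg6 intron 17 (-1.62). It was positive for Upf3b introns 4 (3.73), 7 (2.58) and 9 (3.16). For Upf1 introns 2 (-9.90), 5 (-10.51) and 8 (-10.26), Smg9 intron 8 (-10.08) and Smg1 introns 36 (-8.70) and 46 (-6.63), at least 1 group had no intronic read, so these fitted values depend on the prior count and are no measure of size.

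Over all introns of a gene, every T11 library labelled H3B-8800 lay on the opposite side of the labelled vehicle libraries from the PyMT-M pattern for Upf1 (difference of the means -33.7 percentage points), Smg5 (-9.50) and Upf3b (18.3). These 3 differences between models were not tested.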

How the results depend on the processing

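The number of the 9 genes called was 3 in PyMT-M, and 1 with the median over introns as gene count or without the 6 libraries with muscle or B cell transcripts. In 2208L it was 1, and 4 by DESeq2, 3 from the model's own libraries, 2 without TMM, with intronic reads added, without the 4 libraries with few 5′ reads or without T11, and 0 with the median or without the 6. In T11 by label it was 1, and 2 by DESeq2, 3 without the 4, and 0 from the model alone, with intronic reads added or without the 6. In the mean of 3 models it was 4, and 0 with the median and 2 with intronic reads added or without the 6. For T11 minus that mean it was 3, and 1 with intronic reads added and 5 without the 4. For PyMT-M minus AT3 it was 0, and 1 with intronic reads added. For 2208L minus AT3 it was 0, and 1 by DESeq2. Between vehicle tumors the median left 3 of 5, 1 of 2 and 1 of 3, and the fit without the 6 left 1 of 2 between PyMT-M and 2208L.

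Introns called in PyMT-M, the mean and T11 minus the mean (62, 61 and 54) were 33, 35 and 30 when at least 20 intronic and spliced reads were required, which leaves fewer introns to test. AT3 (24) gave 15 by limma. Without the 6 libraries 2208L (21) gave 8 and T11 (27) gave 12. PyMT-M minus 2208L (0) gave 1 without the 4. Between vehicle tumors, PyMT-M and AT3 (0) gave 2 by limma and 1 without the 4, PyMT-M and 2208L (6) gave 3 with the intron's own spliced reads as offset and 0 without the 4 or the 6, and 2208L and AT3 (3) gave 7 by limma and 0 without the 4 or the 6.

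Gene signs turned in 9 cases. With intronic reads added, Upf1 was 0.49 in PyMT-M and 0.17 in the mean, Upf3b -0.19 and -0.24, and Smg9 0.0213 in PyMT-M. With the median over introns Smg9 was 0.0348 in PyMT-M and 0.15 in the mean, and Upf3a 0.73 in 2208L and 0.26 in the mean. Except where a value or construction shows it, the cause was not tested.

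With 1 library left out, genes called ranged from 1 to 4 in PyMT-M (1 without PyMT-M H3B-8800 replicate 1 or vehicle replicate 2 or 4), 0 to 2 in 2208L and in T11, 1 to 5 in the mean (1 without AT3 H3B-8800 replicate 2), 2 to 5 for T11 minus the mean (5 without T11 labelled vehicle replicate 1) and 1 to 2 between PyMT-M and 2208L vehicle tumors (1 without 2208L vehicle replicate 1 or PyMT-M vehicle replicate 3). Introns called in AT3 fell to 13 without vehicle replicate 1 or 3, and further without H3B-8800 replicate 2, where 1 drug library is left. Introns ranged from 12 to 24 in 2208L (12 without vehicle replicate 1), 17 to 33 in T11 (17 without labelled vehicle replicate 2), 0 to 1 for PyMT-M minus AT3, 0 to 10 between PyMT-M and 2208L vehicle tumors and 0 to 6 between 2208L and AT3. The difference in intronic percent over the 9 genes in PyMT-M ranged from 19.6 to 23.8 points, where 3 against 4 cannot reach the p of 4 against 4.

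Whether replicate numbers paired the tumors is not known. Same-numbered deviations correlated from -0.36 to 0.37, and in PyMT-M from 0.04 to 0.37, where other pairs gave -0.22 to 0.16. Deviations from means of so few libraries are tied to each other, so these values cannot decide it. With the replicate block 15 introns were called in AT3 (24 without it), and the other counts moved by less than 1.5 times. Low reads limit single introns, several of which had 40 to 145 overlapping reads in a group.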
